A study of Mus musculus with 4 samples.

Results

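The nuclear-encoded subunits of oxidative phosphorylation were followed in IGF2BP3 eCLIP-seq data of mouse testes. Members were the protein-coding genes of GENCODE M21 (mm10) whose symbols begin with Nduf and a subunit letter and number, or with Uqcr, Cox4 to Cox8 or Atp5, together with Sdha, Sdhb, Sdhc and Sdhd. This gave 85 gene entries under 84 symbols, of 21951 protein-coding genes in the annotation. A cluster of reads was given to a member when its centre lay in the gene span on the same strand, which gave 957 of 337234 clusters in replicate 1 and 752 of 216354 in replicate 2. Atp5o has 2 entries, and the second is a span at chr16:91684398-91926982 (mm10, minus strand) that also holds Cryzl1 and Donson on that strand.

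The tissue was whole testis, germ and somatic cells together, of wild type C57BL/6 mice at 8 weeks of age, and the labels name 2 testes for a preparation. RNA and protein were crosslinked with 3 exposures to 400 mJ/cm2 of UV light at 254 nm. The IGF2BP3 IP was made with an antibody to IGF2BP3, and its size-matched input (SMInput) was 2% of the lysate with no antibody. Each of the 2 replicates paired a single IP library with a single SMInput library. The series' design line speaks of IgG and of 3 replicates, while the sample labels give input and 2, and the labels were followed.

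For each cluster, the authors' deposited table gives a log2(fold change) of IP over SMInput reads and a −log10(P value). The latter comes from Fisher's exact test where reads were few and from a chi-square test elsewhere. A cluster was called significant when both were at least 2. These P values measure counting in 1 IP against its own SMInput, and both replicates are given side by side. Across samples, 2 replicates leave a paired test 1 degree of freedom. The library totals worked out from the listed values were 5133438 IP and 8706391 SMInput reads in replicate 1, and 4637612 and 16696122 in replicate 2. With 1 SMInput read, a cluster needed at least 7 IP reads to be significant in replicate 1 and 4 in replicate 2. With 10 SMInput reads it needed 24 and 12. No read numbers could be worked out for the 35791 and 16261 clusters listed with a −log10(P value) of 0, so the deepest cluster or the most reads of a gene below are those among its clusters with read numbers. All intervals below are exact 95% intervals of Clopper and Pearson and cover counting error only.

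Testis markers were checked first. All 10 germ cell markers had clusters in both replicates. Ddx4, Ldhc, Pgk2, Acrv1 and Odf1 had significant clusters in both, which is 50%, against 39.1% of protein-coding genes with clusters in both. The other germ cell markers had 0 in either replicate. Prm1, a protamine of late spermatids, had the deepest IP cluster among the germ cell markers, with 445 and 375 IP reads. Its clusters had up to 358 and 639 SMInput reads, and 0 were significant. All 8 somatic cell markers had clusters as well, and 0 of these markers were significant in both replicates. Insl3 of Leydig cells led with 274 and 273 IP reads, and its clusters had up to 319 and 521 SMInput reads. Among 8 markers of other tissues, only Gfap had clusters, with at most 3 IP reads, in replicate 1, and 0 had any in replicate 2. In whole tissue, fewer cells of a type and less RNA per cell cannot be told apart.

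Oxidative phosphorylation moves electrons from NADH and succinate through complexes I to IV to oxygen and uses the resulting proton gradient to make ATP in complex V. Most subunits are encoded in the nucleus, translated in the cytosol and imported, while a small core is encoded in mitochondrial DNA. Spermatogenic cells change their fuel use as they mature, and the testis has its own isoforms of several complex IV subunits and of cytochrome c. IGF2BP3 is a cytoplasmic RNA-binding protein of the IGF2BP family, whose KH domains bind short elements that often contain CA.

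Significant clusters were a minority of the subunits' clusters, and over all regions together their shares were near those of all protein-coding genes. In replicate 1, 56 of the 957 member clusters (5.85%) were significant, against 4.91% of 325667 clusters in protein-coding genes. In replicate 2, 87 of 752 (11.6%) were significant, against 13.1% of 209699. The median log2(fold change) of all member clusters was 1.30 in replicate 1 and 1.34 in replicate 2, and over all protein-coding genes it was 1.46 and 1.53. Over exonic clusters alone, 46 of 553 (8.32%) and 58 of 515 (11.3%) were significant, against 9.15% and 15.3%.

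Of the 85 entries, 81 had a cluster in replicate 1, 79 in replicate 2 and 78 in both. A significant cluster was present in 30 entries in replicate 1, in 40 in replicate 2 and in 23 in both, which is 29.5% of those with clusters in both. Among all protein-coding genes with clusters in both replicates, 39.1% were significant in both. Another 7 entries were significant in replicate 1 alone and 17 in replicate 2 alone, and 38 in neither. The count of 23 fell to 2 with both thresholds at 3 and to 14 with at least 10 IP reads, and rose to 37 with the log2(fold change) threshold lowered to 1. No count over all protein-coding genes is given at these settings. In 18 members no cluster with read numbers had 10 IP reads or more in either replicate, and clusters listed at 0 could not be counted. The subunit genes are short: their median 3′UTR was 156 bases and their median coding sequence 408, against 732 and 1170 over all protein-coding genes.

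In 3′UTRs, CDS and introns, the share of significant clusters was close to the background. In 3′UTRs, 14 of 72 member clusters (19.4%) were significant in replicate 1 and 23 of 72 (31.9%) in replicate 2, while all protein-coding genes gave 19.4% and 34.4%. In CDS, 28 of 444 (6.31%) and 32 of 417 (7.67%) were significant, against 5.27% and 7.94%. In introns, 10 of 402 (2.49%) and 29 of 237 (12.2%) were significant, against 1.92% and 10.7%. In 5′UTRs, 4 of 37 (10.8%) and 3 of 26 (11.5%) were, against 5.09% and 8.63%. The 3′UTR held 25% and 26.4% of the significant member clusters, where it held 44.8% of those of all protein-coding genes in replicate 1 and 10459 of 27512 in replicate 2. Of all member clusters, 7.52% and 9.57% lay in 3′UTRs, against 11.4% and 14.5%. Among significant clusters with at least 10 IP reads, the 3′UTR held 31% and 41.0% in the members, against 52.8% and 60.6%. Among all significant clusters, whatever their IP reads, the CDS held 50% and 36.8% in the members, against 29.4% and 21.1%.

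The same bases were recovered in both replicates at 14 shared sites in 10 subunit genes, 8 in CDS and 6 in 3′UTRs. A shared site is a stretch where significant clusters of both replicates have 1 base or more in common on 1 strand. Its coordinates below are those common bases. Its reads, log2(fold change) and P value are those of the whole cluster of each replicate, which can be longer. The shared sites took up 14 of the 56 significant member clusters of replicate 1 (25%) and 14 of the 87 of replicate 2 (16.1%), against 32.9% and 18.4% over all protein-coding genes. Shared sites were present in 12.8% of the members with clusters in both replicates, against 16.6% of all such protein-coding genes. With the P values of Fisher's exact or the chi-square test adjusted over all clusters and a threshold of 0.05, 9 shared sites were left, with at least 10 IP reads 8, and with both thresholds at 3 only 1. For these 3 settings no count of shared sites over all protein-coding genes is given. A paired t test across the replicates, with p of at most 0.01 in place of the counting P values, called 3 of 527 overlapping pairs of member clusters, against 1.11% of 91053 pairs in protein-coding genes. These were the sites of Cox6a1 and Ndufb9 and a pair in Atp5mpl, and after adjustment over all pairs the t test called 0.

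**Figure D1:**
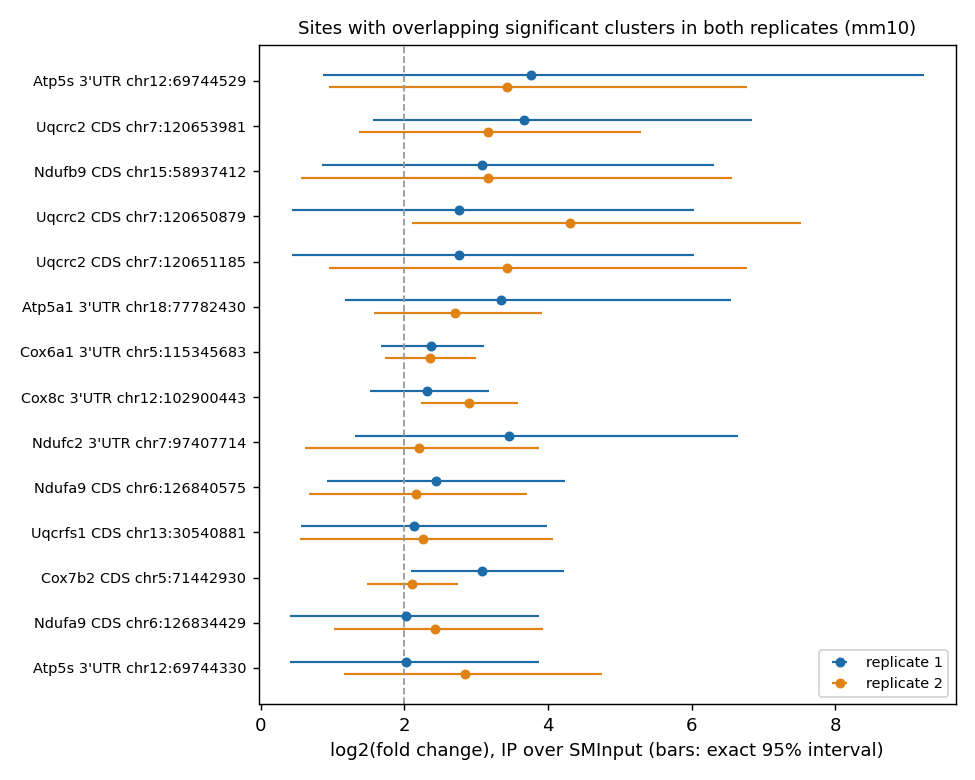
log2(fold change) of IP over SMInput reads at the 14 shared sites, for replicate 1 (blue) and replicate 2 (orange). Bars are exact 95% intervals of counting error, and the dashed line is the threshold of 2. The sites with the most reads, in Cox6a1, Cox8c and Cox7b2, have the narrowest bars, and the site of Atp5s with 8 and 6 IP reads has the widest in replicate 1.

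Complex I takes electrons from NADH. Of its 37 genes, 8 were significant in both replicates: Ndufa5, Ndufa9, Ndufa10, Ndufa12, Ndufb5, Ndufb9, Ndufc2 and Ndufs1. Its clusters numbered 348 in replicate 1, with 18 significant (5.17%), and 274 in replicate 2, with 30 significant (10.9%). Only Ndufa9, Ndufb9 and Ndufc2 had shared sites.

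Ndufa9, an accessory subunit of the arm that faces the matrix, had 2 shared sites in CDS. The site in exon 5 of 11, at chr6:126840575-126840634 (mm10, minus strand), had 16 IP and 5 SMInput reads in replicate 1 and 10 and 8 in replicate 2. Its log2(fold change) was 2.44 (0.93 to 4.24) and 2.17 (0.68 to 3.71). The site in exon 7, at chr6:126834429-126834491, had a log2(fold change) of 2.03 and 2.43 on 12 IP reads in each replicate. Both sites lay just past the threshold, and the intervals of the replicates overlapped.

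In the membrane arm, Ndufb9 had a shared CDS site in exon 3 of 4, at chr15:58937412-58937466 (mm10, plus strand), with a log2(fold change) of 3.08 and 3.17. It rested on 10 IP reads against 2 SMInput reads in replicate 1 and on 5 against 2 in replicate 2. Ndufc2, another subunit of the membrane arm, had its site in the 3′UTR, at chr7:97407714-97407788 (mm10, plus strand). There the log2(fold change) was 3.46 on 13 IP reads in replicate 1 and 2.21 on 9 in replicate 2. The intervals of the replicates overlapped at both sites.

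The other complex I genes that were significant in both replicates had their clusters in different places. Ndufa5, an accessory subunit of the matrix arm, had CDS clusters of 20 and 11 IP reads in replicate 1, with a log2(fold change) of 3.50 and 3.22. In replicate 2 its clusters were in an intron and the 5′UTR, the deepest with 8 IP reads. Ndufs1, the largest core subunit with iron-sulfur clusters, had 1 CDS cluster of 10 IP reads in replicate 1 and 1 intron cluster of 4 in replicate 2. Ndufa10 was significant in an intron in replicate 1 and in its 3′UTR in replicate 2, where 11 IP reads gave a log2(fold change) of 2.99. Ndufa12 was significant in introns in both, at separate positions. Ndufb5 was significant in CDS in both, also at separate positions, and in an intron in replicate 2.

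Several complex I genes had many reads and no significant exonic cluster. Ndufc1 and the core subunit gene Ndufv2 had the most reads over their clusters in this complex. The deepest Ndufc1 cluster of replicate 1 had 35 IP and 33 SMInput reads and a log2(fold change) of 0.85, and that of replicate 2 had 31 and 33 reads and 1.76. Ndufc1 had 0 significant clusters in either replicate. Ndufv2 had 0 of 18 in replicate 1 and 3 of 16 in replicate 2, all in introns on 4 IP reads and 1 SMInput read each. Ndufb4 went the other way: its median exonic log2(fold change) was 0.28 in replicate 1 and 3.43 in replicate 2, with 3 significant clusters of up to 9 IP reads in the latter alone. Of the exonic sequence of Ndufb4, 39.8% of the 31-base words recur elsewhere in the genome.

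Complex II, succinate dehydrogenase, joins the chain to the tricarboxylic acid cycle. The genes of both membrane anchors, Sdhc and Sdhd, were significant in both replicates, and Sdha and Sdhb were not. Sdhd had a 3′UTR cluster at a log2(fold change) of 2.46 with 13 IP reads in replicate 1 and a 3′UTR cluster at 2.05 with 23 IP reads in replicate 2, at separate positions, and also a CDS cluster of 14 IP reads in replicate 2. Sdhc was significant in 1 CDS cluster in replicate 1 and in 1 CDS and 3 further clusters of the 3′UTR in replicate 2, the deepest with 34 IP and 30 SMInput reads and a log2(fold change) of 2.03. Sdha, the flavoprotein, had the most reads in this complex, with 0 of 29 clusters significant in replicate 1 and 2 of 26 in replicate 2. Complex II had 0 shared sites.

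Complex III passes electrons from ubiquinol to cytochrome c. Uqcrc2, which encodes a core protein on its matrix side, had 3 of the 14 shared sites, at the main thresholds more than any other subunit gene. With adjusted P values, or with at least 10 IP reads, only its site in exon 11 was left. With at least 10 IP reads, Ndufa9 kept both of its sites. In replicate 1, 7 of the 22 Uqcrc2 clusters were significant, and in replicate 2, 4 of 13. Its median exonic log2(fold change) was 2.03 and 2.35.

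The shared sites of Uqcrc2 fell in 3 neighbouring exons, 9, 10 and 11 of 14, all in CDS on the plus strand of chromosome 7. At chr7:120653981-120654062 (mm10, exon 11), 15 IP reads stood against 2 SMInput reads in replicate 1 and 10 against 4 in replicate 2. The log2(fold change) there was 3.67 (1.56 to 6.84) and 3.17 (1.38 to 5.30), and the authors' −log10(P value) was 4.70 and 4.01. At chr7:120650879-120650917 (exon 9) it was 2.76 and 4.31, the highest of all significant member clusters of replicate 2. At chr7:120651185-120651227 (exon 10) it was 2.76 and 3.43. The whole cluster at each site had 6 to 15 IP reads in a replicate.

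Uqcrc1, the partner of Uqcrc2 in the core, had more reads but a different pattern between replicates. In replicate 1, 0 of 21 clusters were significant, and the deepest had 29 IP and 19 SMInput reads and a log2(fold change) of 1.37. In replicate 2, 4 of 27 were significant, among them a 3′UTR cluster with 26 IP and 13 SMInput reads at 2.85. Uqcrfs1, the Rieske iron-sulfur protein, had a shared CDS site at chr13:30540881-30540921 (mm10, minus strand), with a log2(fold change) of 2.14 on 13 IP reads and 2.26 on 8. Uqcrq, a small ubiquinone-binding subunit, was significant only in its 5′UTR in replicate 1, with a log2(fold change) of 2.69 and 2.93. The remaining complex III genes, Uqcr10, Uqcr11, Uqcrb and Uqcrh, had 0 significant clusters in either replicate.

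Complex IV, cytochrome c oxidase, has subunits with paired tissue isoforms, and 5 of its 18 genes were significant in both replicates: Cox5a, Cox6a1, Cox6c, Cox7b2 and Cox8c. The deepest significant clusters of the whole set were here and in Atp5b. Cox6a1, the widely expressed form of its subunit, had a shared 3′UTR site at chr5:115345683-115345808 (mm10, minus strand), in a 3′UTR of 204 bases. Of the exonic 31-base words of Cox6a1, 21.4% recur elsewhere in the genome. It had 70 IP and 23 SMInput reads in replicate 1, with a log2(fold change) of 2.37 (1.67 to 3.12) and a −log10(P value) of 13.2 from the authors' chi-square or Fisher's exact test. In replicate 2 it had 54 and 38 reads, 2.36 (1.73 to 2.99) and 16.6. The intervals of the replicates overlapped almost wholly. In replicate 1, the adjoining clusters were significant as well, with 48 IP reads in the 3′UTR and 44 in CDS. Cox6a2, the form of heart and skeletal muscle, had no cluster in either replicate.

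The testis isoforms of complex IV differed among themselves. Cox8c and Cox7b2 each had a shared site, and Cox6b2 had none. Cox8c is the testis form of subunit VIII, and its shared site in the 3′UTR, at chr12:102900443-102900492 (mm10, plus strand), had the highest −log10(P value) and the most IP reads among significant member clusters of replicate 2. It had 53 IP and 18 SMInput reads in replicate 1 and 60 and 29 in replicate 2. The log2(fold change) was 2.32 (1.53 to 3.18) and 2.90 (2.23 to 3.59), and the −log10(P value) in the authors' table was 9.89 and 24.2. Its middle lay in the last exon, 59 bases before the annotated end of the mRNA. Another 3′UTR cluster, with 27 IP reads at 2.08, was significant in replicate 2 alone.

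The Cox8c coding region had more reads and lower enrichment. Its first exon had 155 IP and 165 SMInput reads in replicate 1, with a log2(fold change) of 0.67 (0.35 to 0.997), and 171 and 286 reads in replicate 2, with 1.11 (0.82 to 1.38). In both replicates the interval of that cluster lay wholly below the interval of the 3′UTR site. The CDS cluster of the second exon lay between, at 1.26 and 1.61. Along this mRNA the IP reads rose over SMInput towards the 3′ end in both replicates. The same direction was present over all protein-coding genes. There, the median log2(fold change) in 3′UTRs and CDS was 1.76 and 0.76 in replicate 1, and 1.85 and 0.93 in replicate 2. Cox8a, the widely expressed form, had 1 significant 3′UTR cluster in replicate 1 with 15 IP reads and none in replicate 2, and Cox8b had no cluster.

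Cox7b2, the testis form of subunit VIIb, had its shared site at the end of the CDS. The stretch chr5:71442930-71443050 (mm10, minus strand), in exon 3 of 3, spans the stop codon. It had 50 IP and 10 SMInput reads in replicate 1, with a log2(fold change) of 3.08 (2.09 to 4.23), and 48 and 40 reads in replicate 2, with 2.11 (1.48 to 2.75). The −log10(P value) in the authors' table was 12.5 and 12.6. In replicate 2, its 3′UTR and its 5′UTR in the last and the middle exon were significant too, with 42 IP reads at a log2(fold change) of 2.24 in the middle exon. The same exon gave 1.16 on 33 IP reads in replicate 1, and the first exon gave 1.44 and 1.78, all below the threshold. The gene also had many intronic clusters, which brought it to 113 and 78 clusters, of which 3 and 9 were significant. Cox7b, the widely expressed form, had 2 clusters in replicate 1 and none in replicate 2.

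Cox6b2, the testis form of subunit VIb, had 10 clusters in replicate 1 and 7 in replicate 2, and 0 were significant. Its exonic clusters ran from a log2(fold change) of -0.88 to 0.46 in replicate 1 and from -0.82 to 0.16 in replicate 2, with medians of 0.18 and -0.03. Among its clusters with read numbers, which leave out those of lowest enrichment, the deepest had 36 IP and 51 SMInput reads in replicate 1 and 28 and 90 in replicate 2. Cox6b1, the widely expressed form, had 2 significant CDS clusters in replicate 1, with 16 and 7 IP reads and a log2(fold change) of 3.18 and 3.57, and none of its 5 clusters in replicate 2 was significant.

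**Figure D2:**
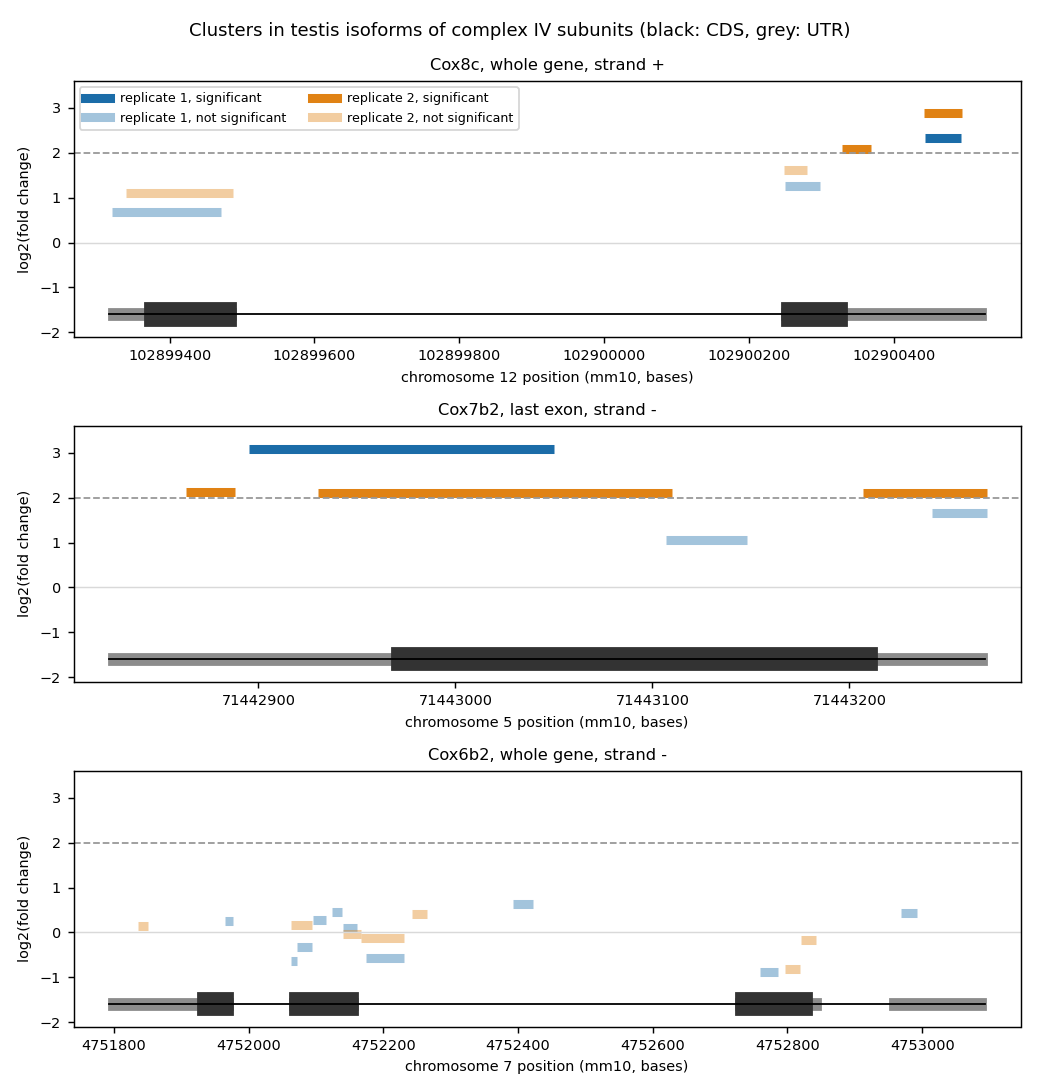
Clusters in the testis isoforms Cox8c, Cox7b2 (last exon) and Cox6b2, drawn at their mm10 position and at their log2(fold change) of IP over SMInput, blue for replicate 1 and orange for replicate 2, with full colour for significant clusters. Black blocks are CDS, grey blocks are UTRs, and the dashed line is the threshold of 2. In Cox8c and Cox7b2, significant clusters of both replicates overlap near the 3′ end, and all Cox6b2 clusters lie below 1.

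Among the other complex IV genes, Cox4i1, the widely expressed form of subunit IV, had 48 IP reads at a log2(fold change) of 0.95 in replicate 1 and 55 at 1.27 in replicate 2 in its deepest clusters. Its 2 significant clusters, in replicate 2, were intronic, on 6 and 5 IP reads. Cox4i2 had no cluster in either replicate, so that Cox4i2, Cox6a2 and Cox8b were the 3 members without any. Cox7a2 had exonic medians of 0.92 and 1.46 and 0 significant clusters, its paralog Cox7a1 of heart and muscle had a single intronic cluster of 3 IP reads, and Cox7a2l had 1 significant cluster, in its 3′UTR in replicate 2. Cox6c was significant with 37 and 25 IP reads in its 3′UTR and 40 in CDS in replicate 1, and with 18 IP reads at another CDS position in replicate 2. Cox5a was significant in the 3′UTR and CDS in replicate 1 and in CDS in replicate 2, again with no overlap.

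Complex V makes ATP. Of its 18 entries, 6 were significant in both replicates: Atp5a1, Atp5b, Atp5g2, Atp5g3, Atp5s and the long second entry of Atp5o. Atp5a1 and Atp5b encode the alpha and beta subunits of the catalytic head and had the most reads in this complex. Atp5a1 had a shared site in its 3′UTR at chr18:77782430-77782468 (mm10, plus strand), with 12 IP and 2 SMInput reads in replicate 1 and 20 and 11 in replicate 2. The log2(fold change) was 3.35 (1.18 to 6.55) and 2.71 (1.58 to 3.92). Its deepest CDS clusters were lower: those of Atp5a1 with 38 IP reads in replicate 1 had 0.28, 0.72 and 0.88, and the one with 32 in replicate 2 had 1.60.

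Atp5b was significant in the 3′UTR in replicate 1, with 15 IP reads at 2.08, and in 2 CDS clusters in replicate 2. The latter had 55 and 41 IP reads, with a log2(fold change) of 2.17 and 2.40. Its deepest cluster in both replicates was in another part of the CDS, at 0.55 on 58 IP reads and 1.25 on 68. No significant cluster of Atp5b overlapped between the replicates.

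Atp5s, named for subunit s of the ATP synthase, had 2 shared sites in its 3′UTR of 828 bases. At chr12:69744529-69744538 (mm10, plus strand) the clusters of the replicates shared only 10 bases. Over the whole clusters, the log2(fold change) was 3.76 on 8 IP reads and 3.43 on 6. At chr12:69744330-69744358 it was 2.03 on 12 IP reads and 2.85 on 10. A CDS cluster of this gene had the highest log2(fold change) of replicate 1 among significant member clusters, 4.22 (1.44 to 9.65), on 11 IP reads and 1 SMInput read. The exonic medians of Atp5s were 2.08 and 2.85.

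Of the 3 genes for subunit c of the membrane ring, which encode the same mature protein, Atp5g2 and Atp5g3 were significant in both replicates and Atp5g1 in neither. Atp5g3 had a CDS cluster at 2.57 on 14 IP reads in replicate 1, and in replicate 2 a 3′UTR cluster at 3.35 on 17 and 2 CDS clusters. In Atp5g2, 86.4% of the exonic 31-base words recur elsewhere in the genome. The Atp5o calls came from the long entry alone in replicate 1. Of its 3 significant clusters there, 2 lay within Cryzl1, and without this entry 22 members were significant in both replicates.

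The members were also sorted by the share of their exonic 31-base words that recur in the genome. Among the 34 entries with under 1% of repeated 31-base words, 14 were significant in both replicates (41.2%). Among the 28 with 1% to under 20%, 6 were (21.4%), and among the 23 with 20% or more, 3 were. The median number of exonic clusters in these classes was 6.5, 6 and 5 in replicate 1 and 5, 4 and 5 in replicate 2. These shares are of all entries of a class, also those without clusters in both replicates. The 39.1% of all protein-coding genes is of those with clusters in both, so it has another denominator. Over all 85 entries, 23 were significant in both replicates. The difference between these classes was not tested.

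**Figure D3:**
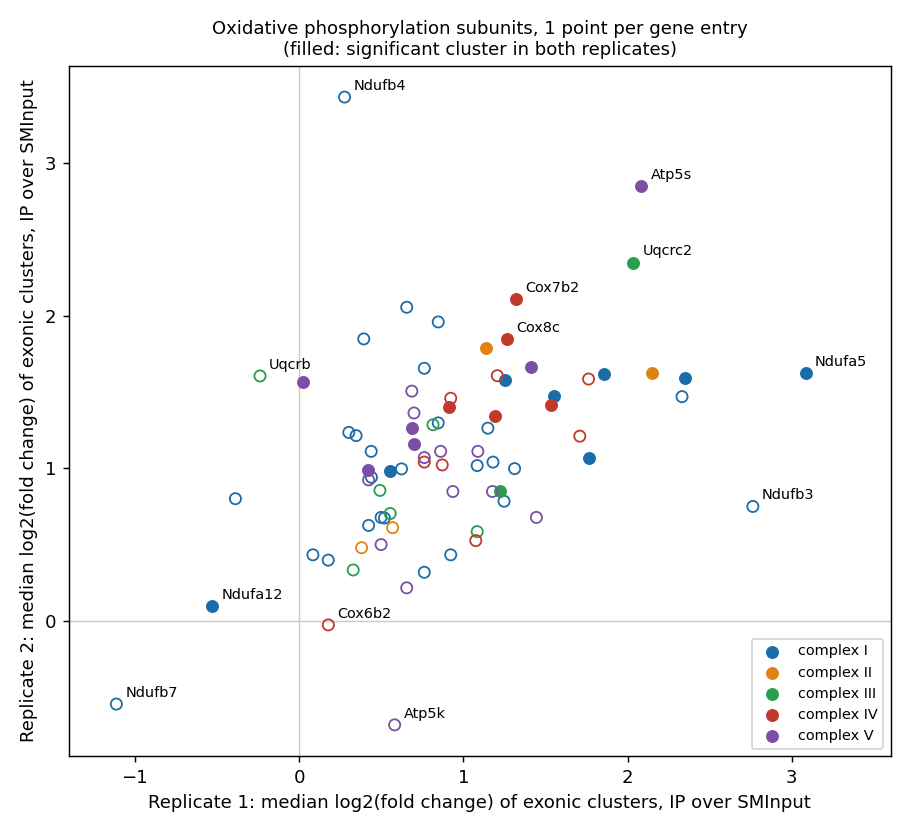
Median log2(fold change) of the exonic clusters of each gene entry in replicate 1 (horizontal) and replicate 2 (vertical), coloured by complex, filled where a cluster was significant in both replicates. Most entries lie between 0 and 2 in both replicates; Ndufa5, Uqcrc2 and Atp5s are among the highest, and Ndufb7 and Cox6b2 among the lowest.

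Enrichment of single members was related between the replicates, but loosely. Over 78 entries with exonic clusters in both, Pearson's r of the median exonic log2(fold change) was 0.41 and Spearman's rho 0.44, and over 527 pairs of overlapping member clusters r was 0.49 and rho 0.48. Clusters of a gene share its RNA and the same libraries, and genes are not independent replicates. Medians by complex were close to each other: over exonic clusters they ran from 0.76 to 1.15 in replicate 1 and from 1.04 to 1.26 in replicate 2. Complex III had the highest share of significant clusters in replicate 1, 13.2% of 76, and in replicate 2 it had 12.9% of 70, below the 13.3% of 60 in complex II, with Uqcrc2 giving 7 of 10 and 4 of 9.

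The letters at the shared sites were read from the mm10 genome on the strand of the RNA. The sites with the most reads and those of Uqcrc2 are shown as their middle 30 bases, with CA in capitals.
Cox8c, chr12:102900453-102900482, plus strand, 3′UTR: ttgtttttggactgtgCAtCAtatggacga
Cox7b2, chr5:71442975-71443004, minus strand, CDS: tattggCAgagttacccccCAagagtggaa
Cox6a1, chr5:115345731-115345760, minus strand, 3′UTR: ttggatgctaagctcgtgtctcctttcctc
Uqcrc2, chr7:120650883-120650912, plus strand, CDS of exon 9: gaggggtggccttggtttagctggtgCAaa
Uqcrc2, chr7:120651191-120651220, plus strand, CDS of exon 10: ttagagagCAgaatggagaCAacctggtcc
Uqcrc2, chr7:120654007-120654036, plus strand, CDS of exon 11: agactctgggctctttggaatttaCActat
The stretch of Cox6a1 holds no CA, and that of Cox8c holds GGACT.

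In windows of 100 bases around cluster centres, searched on the RNA strand alone, CA occurred on average 6.57 times at the significant 3′UTR clusters of members in replicate 1 and 6.87 times in replicate 2. Over all protein-coding genes it occurred 6.88 and 6.47 times. GAACA was in 3 of 14 such member windows (21.4%) and in 4 of 23 (17.4%), against 8.33% and 7.73% of the windows of all protein-coding genes. AAACC was in 2 of 14 (14.3%) and 2 of 23, against 8.73% and 8.46%, and GGACT in 2 of 14 and 1 of 23, against 10.4% and 9.78%. In CDS, GAACA was in 4 of 28 (14.3%) and 4 of 32 (12.5%) member windows, against 10.4% and 10.7%. In CDS, AAACC was in 2 and 4 windows of members, against 9.58% and 8.46%, and GGACT in 1 and 2, against 10.1% and 9.16%. Each of these counts is 4 windows or fewer. Windows of neighbouring clusters can overlap, as in the 3′UTR of Cox6c in replicate 1, so the same bases can be counted more than once. The mean GC content of the significant 3′UTR windows of members was 42.3% and 43.0%, below the 47.7% and 51.0% of the other 3′UTR windows of members. Over all protein-coding genes, the same means were 45.2% and 44.7% for significant and 45.6% and 45.7% for other windows.

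Other genes of the pathway were taken from lists. Of 46 assembly factors, 16 had a significant cluster in replicate 1, 17 in replicate 2 and 9 in both, which is 23.7% of the 38 with clusters in both, against 39.1% of all protein-coding genes: Atpaf1, Coa5, Cox10, Cox15, Cox16, Cox17, Nubpl, Tmem70 and Uqcc2. Of their clusters, 8.51% and 16.1% were significant, against 4.91% and 13.1%, and over exonic clusters 20.1% and 24.2%, against 9.15% and 15.3%. Coa5, an assembly factor of complex IV, gave 18 of these 45 calls in replicate 1 and 14 of 55 in replicate 2, with 18 of 19 clusters significant in replicate 1 and 14 of 15 in replicate 2, mostly in its 3′UTR. Its exonic median log2(fold change) was 3.01 and 3.38. Of 14 enzymes of the tricarboxylic acid cycle, 3 had a significant cluster in replicate 1 and 12 in replicate 2. Cs, Dld and Dlst had them in both, which is 23.1% of the 13 with clusters in both, against 39.1% of all protein-coding genes. Of the clusters of these enzymes, 4.14% and 10.6% were significant, against 4.91% and 13.1%. Citrate synthase (Cs) had 8 significant clusters in replicate 1, all in the 3′UTR, up to a log2(fold change) of 4.41 on 25 IP reads. In replicate 2 it had 6 in the 3′UTR, up to 3.81 on 35 IP reads, and 1 in an intron on 4. Among 7 electron carriers and their entry points, only Etfdh was significant in both (14.3%, against 39.1% of all protein-coding genes). Both cytochrome c genes, Cycs and the testis form Cyct, had 0 significant clusters. The 13 subunits encoded in mitochondrial DNA had no cluster, and no cluster of either table lies on that chromosome.

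The subunits and the 2 families of ribosomal proteins all had lower shares of genes significant in both replicates than the 39.1% of all protein-coding genes. Of 92 cytoplasmic ribosomal protein genes with clusters in both replicates, 13 (14.1%) were significant in both, and of 69 mitochondrial ones, 7 (10.1%). The subunits, counted by symbol, gave 23 of 77 (29.9%). The shares of significant clusters were 3.08% and 7.58% for cytoplasmic ribosomal proteins and 4.42% and 13% for mitochondrial ones, beside 5.85% and 11.6% for the subunits and 4.91% and 13.1% for all protein-coding genes. No test was made between the lists.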

How the data were processed

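IGF2BP3 eCLIP-seq of mouse testes was analysed from the authors' deposited tables of read clusters, 1 for each of 2 replicates. From the study's methods and the submitters' processing notes, the authors' steps were trimming with cutadapt, removal of ribosomal RNA reads with Bowtie2, alignment to mm10 with STAR, merging of PCR duplicates and the calling of clusters with Clipper. The treatment of reads that map to several places is not given in the sources used here. The −log10 column of the deposited tables holds the authors' P value for each cluster, from a chi-square test with Yates' correction or Fisher's exact test, and runs from 0 to 400. The log2 column holds the authors' fold change of IP over SMInput after scaling by library totals. Both were used as the caller's values of each peak, and the tables held 0 columns of other samples.

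Gene spans and basic transcripts came from GENCODE M21. Where regions of several transcripts met at a centre, the 3′UTR had precedence over CDS, then the 5′UTR, then introns, and a cluster in both Atp5o entries was counted once. Lengths are those of the transcript with the longest CDS, stop codon counted in the 3′UTR. Read numbers were worked out as the whole numbers that return both listed values, with Fisher's exact test where an observed or expected number was below 5, and 99.9% and 99.8% of the clusters listed between 0 and 400 had 1 solution. The procedure was tested on simulated data. The paired t test took the 2 log2(fold change) values of overlapping clusters, both at least 2, and was added after the data were seen. P values were adjusted by the Benjamini-Hochberg method over all clusters of a table. Repeated 31-base words were counted over the exons of each gene. Calculations used Python 3.11.15, pandas 2.3.3, NumPy 2.4.6, SciPy 1.17.1 and matplotlib 3.10.9.

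Named genes were the members significant in both replicates, the 5 significant clusters of each replicate with the largest log2(fold change) and with the most IP reads, the 2 members of each complex with the most reads, the paralogs, the members without clusters, and, of other lists, genes significant in both replicates. Outside this rule, the markers Prm1, Insl3 and Gfap and both cytochrome c genes were named. In replicate 2 the fifth place by log2(fold change) was shared by 14 clusters at 3.85, 13 of them on 4 IP reads and 1 SMInput read, all in introns: Ndufa5, Ndufc2, Ndufs1, Ndufs7, Ndufv2, Cox7b2, Atp5j and the long entry of Atp5o. Sdhb, the Uqcr genes without calls, Ndufb7 and Atp5mpl were named after their values were seen. Ndufa11b is a pseudogene and had no cluster, its paralog Ndufa11 had 1 significant cluster, in replicate 2, and Ndufa4 had 1, also in replicate 2, where Ndufa4l2 had none. The members and lists were chosen with earlier results of these data known. Alternatives covered the thresholds, adjusted P values, a minimum of IP reads, the rule that gives a cluster its gene, the order of regions, the overlap of sites and each replicate alone.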

Additional observations from a re-analysis of the deposited data

Results flagged for a closer look

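Clusters on the strand opposite to a member, inside its span, were not used in any comparison. Among them, 6 of 107 were significant in replicate 1 and 4 of 65 in replicate 2. All of these clusters lay in another annotated gene on their own strand. The significant ones were in Itsn1 opposite to the long entry of Atp5o and in Vps13b opposite to Cox6c in replicate 1, and in Itsn1 and in Pdzd9 opposite to Uqcrc2 in replicate 2.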

How the results depend on the processing

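With both thresholds at 3, 2 members were significant in both replicates instead of 23, shared sites fell from 14 to 1, and significant member clusters from 56 to 9 (0.940%) and from 87 to 10 (1.33%). Lowering the log2(fold change) threshold to 1 gave 37 members, 49 shared sites, and 101 (10.6%) and 169 (22.5%) significant clusters. With at least 10 IP reads, 14 members, 8 shared sites and 39 clusters of replicate 2 (5.19%) were left, and with adjusted P values below 0.05, 9 shared sites and 31 clusters of replicate 1. Either replicate alone gave 30 to 40 members. For these counts, no value over all protein-coding genes is given at the changed settings. Of the significant member clusters, 25% and 55.2% had fewer than 10 IP reads, against 29.0% and 61.9% in all protein-coding genes. The median log2(fold change) moved from 1.30 and 1.34 to 0.85 and 1.11 over exonic clusters, and in replicate 1 to 1.35 without clusters in other genes and 1.25 without the long Atp5o entry, an alternative chosen after the data were seen. The 3′UTR share of significant clusters, 25% and 26.4%, was 22.2% and 30% with both thresholds at 3, 18.8% and 21.9% with the lower threshold, 35.5% and 32.4% with adjusted P values, 31% and 41.0% with at least 10 IP reads, 30.4% and 39.7% over exonic clusters, and 26.4% and 28.7% without the long Atp5o entry. In replicate 2 it was 29.1% without clusters in other genes and 25.3% with CDS given precedence. The cause of these differences was not tested. With the replicate block, a paired t test with 1 degree of freedom, chosen after the data were seen, 3 sites were called, 2 of them among the 14 shared sites, and 0 after adjustment.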
